A study of Mus musculus with 68 samples.

Results

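The genes described here encode RNA polymerase II, its general transcription factors, the TATA-binding-protein-associated factors of TFIID, and Mediator, in mouse embryos made by somatic cell nuclear transfer (SCNT). They were taken by symbol from the deposited gene tables. The symbols Polr2a to Polr2m, those starting with Gtf2 and one of the letters a, b, e, f or h, and those starting with Taf or Med and a digit gave 80 matches. Of these, 5 were left out (Taf7l, and Taf1a to Taf1d, which belong to the polymerase I factor SL1), leaving 75 genes of the 24421 gene symbols in the tables: 13 of RNA polymerase II, 13 of the general factors TFIIA, TFIIB, TFIIE, TFIIF and TFIIH, 18 of TFIID and related TAF proteins, and 31 of Mediator. All 75 were measured in 68 RNA-seq libraries.

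The SCNT embryos were made by injecting a cumulus cell (CC) nucleus into an enucleated metaphase II oocyte and activating it with strontium chloride, with B6D2F1 females 8 to 10 weeks old as the source of oocytes and cumulus cells. Libraries came from CCs (3), from SCNT embryos 6 and 14 h post activation (6 hpa and 14 hpa, 6 each), at the early and late 2-cell stages (E2C and L2C, 6 each), the 4-cell stage (4C, 5), the 8-cell stage (8C, 6) and the morula (6), and from the inner cell mass (ICM, 6) and trophectoderm (TE, 6) of SCNT blastocysts. A second set of 12 libraries came from the ICM and TE of C57BL/6J blastocysts made by fertilization, 2 for each tissue and treatment. These zygotes had received an antisense morpholino oligonucleotide (MO) against Max or Mcrs1, or were controls. The control libraries are labelled both as control and as untreated, while the methods describe a random-sequence control MO, and they are called control MO here. For the sequenced embryos the paper gives a different injected concentration for the Max, Mcrs1 and control MO, highest for the control, so the groups were not matched for dose. Max is the partner of Myc proteins at E-box sequences, and Mcrs1 is a microspherule protein of chromatin-remodelling and acetyltransferase complexes. A library was made from 10 blastomeres, by the methods, and since nothing in the labels ties replicates to separate collections of embryos, p-values measure only the spread between these libraries, which may be technical.

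RNA polymerase II makes all messenger RNA. It is placed at a promoter by TFIID, which contains the TATA-binding protein and the TAFs, together with TFIIA, TFIIB, TFIIE, TFIIF and TFIIH, and it receives signals from activators through Mediator, whose head, middle and tail modules join a detachable kinase module. An oocyte stores transcripts for early development and is silent when mature. In the mouse, transcription from the embryonic genome starts weakly in the zygote and rises in a major wave at the late 2-cell stage, when stored maternal transcripts are also being degraded. Levels are given as TPM, a gene's share of the transcripts in a library after division by its length. A gene's TPM can therefore rise because its own transcripts increased or because others decreased. RNAs were captured by their poly(A) tail, by the methods, and tail length was not measured. A change in capture therefore cannot be told from a change in amount. A smaller number of cells of a type and less RNA per cell cannot be told apart in such bulk libraries.

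The core promoters of a few members are shown first, since these genes mark the patterns described later. The 250 bases before the RefSeq start site (GRCm38.p6, the build of the deposited tables) are printed 5′ to 3′ on the gene's strand, with the named motif in capitals. Polr2a, the catalytic subunit, has a TATAAA 33 bases before its start, at chr11:69758634-69758883 on the minus strand. Taf9b, a TAF that fell at genome activation, lies on the minus strand at chrX:106221159-106221408 and holds an E-box CACGTG and 5 copies of the GC box GGGCGG. Gtf2a1, the large TFIIA subunit, at chr12:91590488-91590737 on the minus strand, holds CACGTG and the ETS-type sequence CCGGAAG. Its level was lower after Max MO and also after Mcrs1 MO, in both ICM and TE. Med29, a Mediator subunit that rose at genome activation, at chr7:28392691-28392940 on the minus strand, holds CCAAT 3 times, each on the opposite strand and so printed as ATTGG.
Polr2a: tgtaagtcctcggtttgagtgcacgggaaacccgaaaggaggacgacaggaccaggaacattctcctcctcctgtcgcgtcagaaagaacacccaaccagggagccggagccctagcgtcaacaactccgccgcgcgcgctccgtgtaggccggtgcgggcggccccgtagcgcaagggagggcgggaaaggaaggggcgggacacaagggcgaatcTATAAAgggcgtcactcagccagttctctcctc
Taf9b: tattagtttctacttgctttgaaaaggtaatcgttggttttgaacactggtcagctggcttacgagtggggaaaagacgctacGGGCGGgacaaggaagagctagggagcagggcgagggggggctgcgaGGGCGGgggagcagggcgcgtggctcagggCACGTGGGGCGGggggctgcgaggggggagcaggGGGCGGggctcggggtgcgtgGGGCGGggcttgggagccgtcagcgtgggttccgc
Gtf2a1: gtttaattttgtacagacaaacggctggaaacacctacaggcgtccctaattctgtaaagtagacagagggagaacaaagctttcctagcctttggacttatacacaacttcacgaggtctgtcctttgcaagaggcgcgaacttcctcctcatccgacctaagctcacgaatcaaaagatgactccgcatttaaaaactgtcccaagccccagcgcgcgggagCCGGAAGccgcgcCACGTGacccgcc
Med29: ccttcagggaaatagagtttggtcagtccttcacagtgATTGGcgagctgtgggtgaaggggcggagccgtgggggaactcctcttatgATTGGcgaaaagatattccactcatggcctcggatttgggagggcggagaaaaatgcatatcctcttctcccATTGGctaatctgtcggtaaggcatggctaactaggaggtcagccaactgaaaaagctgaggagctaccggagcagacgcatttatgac

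A promoter of this length was found for 63 of the 75 members, and the same motifs were counted on both strands in all 27025 promoters. The GC box GGGCGG was in 41 member promoters (65.1%), against 32.9% of all promoters. CCGGAAG was in 14 (22.2%, against 7.06%) and the E-box CACGTG in 9 (14.3%, against 6.05%), in Gtf2a1, Gtf2f1, Gtf2h1, Gtf2h5, Med17, Taf12, Taf6l, Taf8 and Taf9b. TATAAA was in 11 (17.5%, against 13.0%) and CCAAT in 21 (33.3%, against 34.5%), shares close to those over all promoters. The palindromic core of the NRF1 site was in none of the 63 and in 0.781% of all promoters. These are matches of letters in a window, counted for each motif alone, and a GC box can adjoin or overlap an E-box, as in Taf9b, where it follows directly.

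The libraries held between 1.00 and 5.17 gigabases of coverage over annotated and assembled loci. Read counts were not given, so the number of reads behind each value is unknown. The lowest coverage was in control TE replicate 1 (1.00), with 2.23 in control TE replicate 2. In TE it was 3.19 and 3.05 after Max MO and 2.25 and 2.09 after Mcrs1 MO. Between 6177 and 11771 genes per library were at 1 TPM or more. L2C replicate 1 and SCNT ICM replicates 1 to 3 stood apart. The TPM of annotated genes summed to 30.4% of that of the assembled loci in L2C replicate 1. At 4C this percentage divided by replicate number, at 44.0%, 52.3% and 53.1% in replicates 1 to 3 and 75.6% and 73.5% in replicates 4 and 5. The 3 ICM libraries had the fewest genes at 1 TPM or more, 6177 to 6771 against 9011 or more in the other ICM libraries. An exact 0 need not mean absence, since widely used genes such as Ldha (below 1 TPM in 13 libraries) were also low in places. Cumulus markers summed to 1819–2650 TPM in CC and 6.86–13.9 TPM at 6 hpa, while 8 oocyte markers summed to 0.0158–2.25 TPM in CC and 4196–8172 TPM at 6 hpa and were at 37.6–108 TPM by 4C. Of the SCNT blastocyst tissues, ICM markers were at 211–746 TPM in ICM and 59.1–331 TPM in TE, and TE markers at 2034–8506 TPM in ICM and 5143–16191 TPM in TE.

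Every member reached 1 TPM in some libraries, but many did not in all. Of the 75 members, 38 were at 1 TPM or more in all 68 libraries and none was below 1 TPM in all of them. Over all 5100 member values, 465 were below 1 TPM and 117 were 0. Polr2a itself was among the low ones, below 1 TPM in 22 libraries with a highest level of 26.5 TPM, as were Med12 (below 1 TPM in 50 libraries) and Med16 (37 libraries). Both Med12 and Med9os fell under the mean of 1 TPM asked of a gene to be tested over the SCNT stages, which left 73 members tested there. Med9os is annotated opposite Med9, and these libraries carry no strand, so their reads cannot be told apart.

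**Figure D1:**
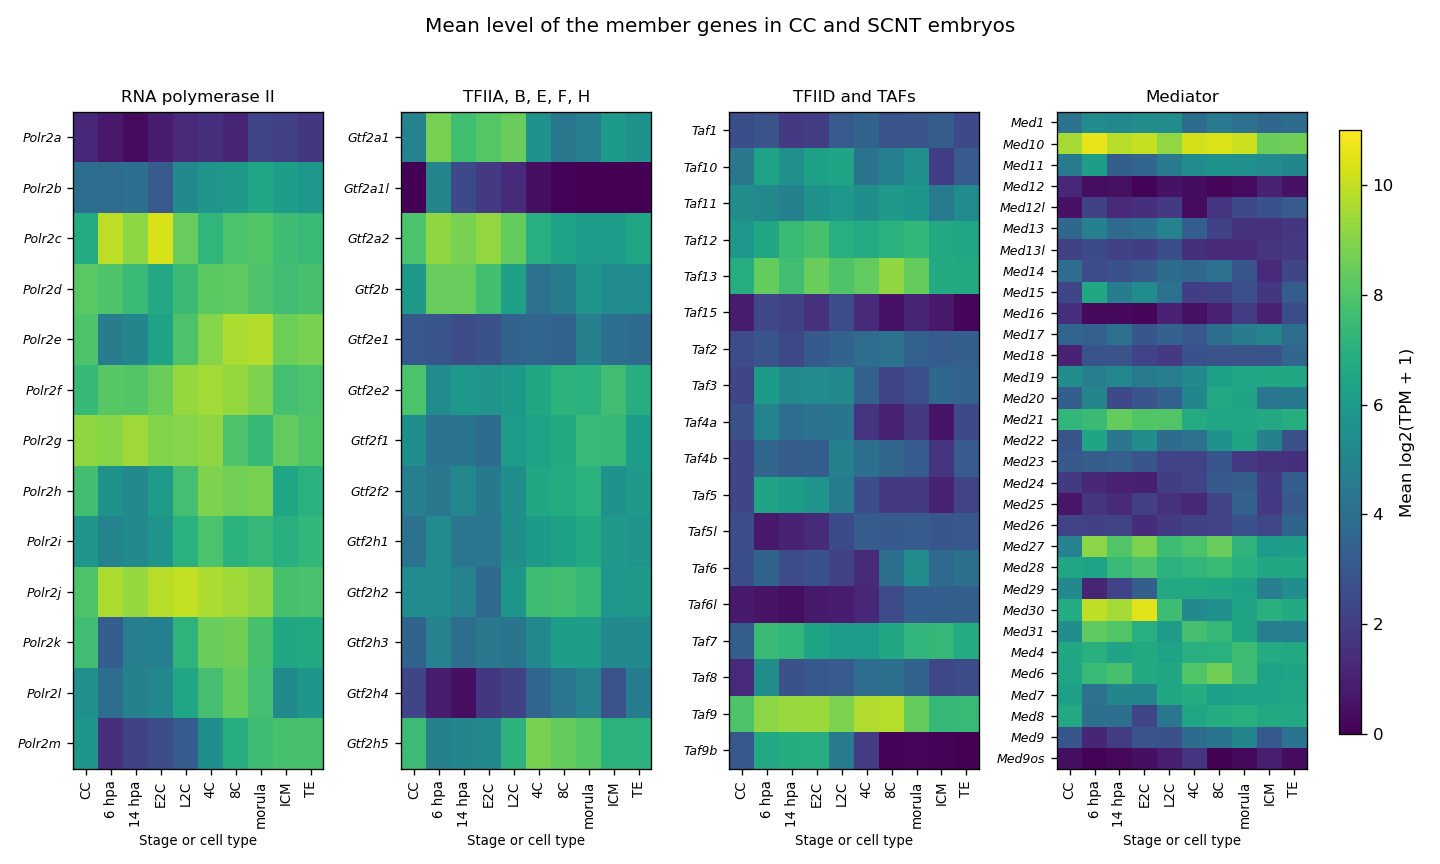
Mean level of each member, log2(TPM + 1), in CC and at each SCNT stage, with 1 panel per complex and brighter colours for higher levels. Polr2k and Polr2e are low from 6 hpa to E2C and high from 4C, while Taf9b, Med30 and Gtf2a1l go the other way.

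The summed level of each complex was followed over the stages as a description, without a test. The polymerase II sum was 2209 ± 167 TPM (SD, n = 3) in CC, 2998 ± 509 (SD, n = 6) at 6 hpa, 3905 ± 959 (SD, n = 6) at L2C and 4655 ± 810 (SD, n = 5) at 4C. Mediator genes summed to a mean of 1730 TPM in CC, 4467 at 6 hpa, 2365 at L2C and 3060 at 4C, of which Med30 alone was a mean of 983 TPM at 6 hpa and 44.2 TPM at 4C. The TFIID and TAF genes summed to a mean of 550 TPM in CC and 1662 at 6 hpa, and to 1602 at 4C. The 4C libraries divided by number, at 1106, 1113 and 1423 TPM in replicates 1 to 3 and 2384 and 1984 TPM in replicates 4 and 5. The 75 members together took 5391 ± 303 TPM (SD, n = 3) in CC and 10764 ± 1050 (SD, n = 6) at 6 hpa. At L2C their sum ranged from 4313 TPM in replicate 1 to 10831 TPM. In the SCNT blastocyst the sums were again near the CC level, with means of 5499 TPM in ICM and 5374 TPM in TE.

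Comparisons below used limma on log2(TPM + 1) across all genes, a scale on which the change of a low gene is understated. A gene was called changed at a Benjamini-Hochberg adjusted p below 0.05 and a difference of at least 2-fold, and ± on a log2 difference is its standard error. Each call is read beside the percentage of all tested genes that were called in the same comparison. Neighbouring stages share libraries, as do the comparisons with 6 hpa.

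Comparing 6 hpa embryos with CCs sets the reconstructed embryo before its first cleavage beside the donor cell type. Of the 73 members tested, 31 were higher at 6 hpa and 14 lower, 45 in all, where 61.4% of all 12084 genes were called. The higher calls exceeded the share of all genes (25.8%) and the lower calls were fewer (35.6% of all genes), and the median difference was 0.41 for members and -0.28 for all genes. By complex, TFIID and TAF genes split 11 higher and 1 lower, Mediator 12 and 5, the general factors 6 and 3, and polymerase II 2 and 5.

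The members lower at 6 hpa included the small subunits that polymerase II shares with polymerases I and III. Polr2k, a shared zinc-binding subunit, was at 168, 183 and 237 TPM in the CC libraries and between 6.76 and 10.1 TPM, with a median of 8.95, at 6 hpa. That is a difference of -4.32 ± 0.36 (adjusted p = 1.07e-15, limma), and the groups did not overlap. Polr2e, another shared subunit, went from 232, 254 and 269 TPM to 11.6–38.3 TPM (median 27.5), a difference of -3.36 ± 0.48 (adjusted p = 2.70e-08, limma). Of the 5 shared subunits (Polr2e, Polr2f, Polr2h, Polr2k and Polr2l), 4 were lower and none higher. Polr2m, which encodes the polymerase II-associated protein Gdown1, went from 44.9, 49.7 and 78.8 TPM to 0.92–2.58 TPM (median 2.02), and the Mediator gene Med29 from 34.6, 35.9 and 43.5 TPM to 0.592–3.37 TPM (median 1.05). Their differences were -4.31 ± 0.46 and -4.15 ± 0.47. Gtf2h5, the smallest TFIIH subunit, differed by -2.75 ± 0.33 and the head subunit Med8 by -2.60 ± 0.37. By contrast Polr2c, which with Polr2j starts assembly of the polymerase, was higher, at 88.4, 116 and 118 TPM in CC and 570–1310 TPM (median 1077) at 6 hpa, a difference of 3.14 ± 0.49 (adjusted p = 1.70e-07, limma).

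Several TAFs and the Mediator genes Med15 and Med27 were far higher at 6 hpa than in CC. By Mediator module, 5 of 7 head genes were called higher and 1 lower. Of 5 tail genes 1 was higher and 0 lower, and of 4 head-tail interface genes 2 were higher and 1 lower (all genes: 25.8% higher and 35.6% lower). Taf7, which binds the Taf1 subunit of TFIID, was at 8.37, 8.63 and 10.1 TPM in CC and at 149–232 TPM (median 182) at 6 hpa, a difference of 4.19 ± 0.28 (adjusted p = 2.86e-19, limma). Taf5, a scaffold subunit of TFIID, was at 1.93, 3.83 and 7.36 TPM in CC and at 64.2–116 TPM (median 81.7) at 6 hpa, and Taf8 at 0.932, 1.69 and 2.27 TPM and then 25.7–53.9 TPM (median 47.4). Their differences were 4.11 ± 0.67 and 4.09 ± 0.68. Med15, a tail subunit that activators bind, was at 3.29, 3.73 and 4.77 TPM in CC and ranged widely at 6 hpa, from 27.9 to 158 TPM (median 118), a difference of 4.30 ± 0.72, and Med27 differed by 4.22 ± 0.48. The germ-cell TFIIA gene Gtf2a1l was listed at 0 in 2 CC libraries and at 0.00869 TPM in the third, and was at 24.5–38.9 TPM (median 29.8) at 6 hpa. Gtf2b, the only TFIIB gene, was at 54.3, 61.6 and 69.5 TPM in CC and at 245–435 TPM (median 388) at 6 hpa, a difference of 2.49 ± 0.62 (adjusted p = 0.000485, limma).

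Between 6 and 14 hpa, before the first cleavage, 2 members were higher and 8 lower, 10 of 73, where 11.1% of all genes were called (6.14% higher and 4.94% lower). The Mediator head subunit Med11 had the largest fall, from 48.2–87.6 TPM (median 79.5) at 6 hpa to 1.49–16.3 TPM (median 11.5) at 14 hpa, a difference of -2.82 ± 0.40 (adjusted p = 4.40e-07, limma). Taf8 fell by 2.73 on the log2 scale (SE 0.57), from 25.7–53.9 TPM to 0.269–13.5 TPM (median 10.3), Med20 by 2.57 (SE 0.48) and Gtf2a1l by 2.54 (SE 0.37). Med22 and Med15 also fell, with overlapping ranges, by 2.03 (SE 0.70) and 1.92 (SE 0.60). The 2 higher members were Polr2k, at 19.3–29.7 TPM (median 27.5), all 6 libraries above every 6 hpa library (1.44 ± 0.30, adjusted p = 0.000326, limma), and Med28 (1.06 ± 0.27, adjusted p = 0.00469, limma). The split of calls depended on scaling. It was 3 higher and 6 lower after quantile normalization and 6 higher and 6 lower after rescaling each library to its annotated genes. Replicates 4 to 6 alone gave 11 higher and 6 lower.

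Between 14 hpa and E2C, 5 members passed the test, 1 higher and 4 lower, where 5.83% of all genes were called (2.78% higher and 3.05% lower). Polr2e rose by 1.38 ± 0.40 (adjusted p = 0.0242, limma), from 6.56–73.5 TPM (median 53.9) to 70.1–102 TPM (median 78.7). Med8 fell by 1.71 (SE 0.31, adjusted p = 0.000131, limma), from 6.85–23.6 TPM (median 17.0) to 1.55–6.95 TPM (median 3.99). The ranges of both genes overlapped between the stages. Med31, Gtf2h2 and Med6 fell by 1.13, 1.12 and 1.08. At E2C the libraries numbered 1 to 3 and 4 to 6 differed for many members. Polr2b, the second-largest polymerase II subunit, was at 17.5, 18.0 and 15.5 TPM in replicates 1 to 3 and at 3.35, 3.93 and 2.81 TPM in replicates 4 to 6, and Gtf2h5 at 82.4, 50.1 and 58.1 TPM and at 17.0, 25.5 and 13.8 TPM. The methods give 3 replicates per stage and sequencing at 2 companies, without saying which library was sequenced where, and the part of that division in these values was not tested. Replicates 1 to 3 alone gave 7 higher and 1 lower, replicates 4 to 6 alone 0 higher and 11 lower, and dropping E2C replicate 1, 2 or 3 left 2, 3 and 3 calls.

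The major wave of genome activation falls between E2C and L2C. Here 21 of 73 members were called, 16 higher and 5 lower, where 34.9% of all genes were called (23.7% higher and 11.2% lower), and the medians were 0.24 for members and 0.26 for all genes. Polymerase II genes made up 6 of the higher calls and 1 of the lower, the general factors 5 and 1, TFIID and TAF genes 2 and 1, and Mediator 3 and 2. Med29 rose from 3.69–18.8 TPM (median 10.3) to 20.9–150 TPM (median 133), a difference of 3.27 ± 0.40 (adjusted p = 2.99e-09, limma). Polr2k rose from 9.78–55.7 TPM (median 33.5) to 90.2–260 TPM (median 117), a difference of 2.42 ± 0.30 (adjusted p = 4.33e-09, limma). Neither gene's ranges overlapped.

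Of the polymerase II genes, Polr2b rose from a median of 9.70 TPM (range 2.81–18.0) to 32.6 TPM (21.8–96.6), a difference of 2.07 ± 0.39 (adjusted p = 2.50e-05, limma), and 4 of the 5 shared subunits rose. Gtf2f1, the large subunit of TFIIF, which binds the polymerase, rose by 2.24 ± 0.41, and Gtf2h2, a core TFIIH subunit, by 2.05 ± 0.30, each without overlap. Polr2a, the catalytic subunit, was at 0.418–2.25 TPM (median 0.612) at E2C and 0.275–4.81 TPM (median 1.32) at L2C, a difference of 0.50 ± 0.42 that did not pass (adjusted p = 0.368, limma). Taf1, the largest TFIID subunit, was at 1.65–5.70 TPM (median 2.45) and then 4.12–19.8 TPM (median 6.79), a difference of 1.15 ± 0.46 (adjusted p = 0.0411, limma). Its call was kept in 5 of 11 alternatives and with 5 of 12 libraries left out, and it was lost with a pseudocount of 0.1, with no filter on low TPM and after quantile normalization.

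The 5 members that fell at this step were led by Med30 and Taf9b. Med30 fell from 1095–1741 TPM (median 1497) to 44.5–611 TPM (median 340), a difference of -2.90 ± 0.44 (adjusted p = 4.16e-07, limma), and Taf9b from 86.9–202 TPM (median 111) to 12.2–70.1 TPM (median 19.0), a difference of -2.33 ± 0.34, both without overlap. Polr2c fell by 1.88 (SE 0.41), Gtf2b by 1.39 (SE 0.52) and Med27 by 1.25 (SE 0.40), with overlapping ranges. The L2C libraries again differed by number. Med30 was at 45.3, 44.5 and 133 TPM in replicates 1 to 3 and 548, 611 and 568 TPM in replicates 4 to 6, Polr2c at 109, 120 and 213 TPM and 1031, 805 and 751 TPM, and Gtf2b at 22.4, 37.7 and 44.7 TPM and 175, 148 and 203 TPM. In each case replicates 1 to 3 were lower. Without L2C replicate 1 the calls were 17 higher and 3 lower. With replicates 1 to 3 alone the split was 9 higher and 10 lower, after rescaling to annotated genes 24 higher and 3 lower, and after removing the trend of change on transcript length 11 higher and 14 lower.

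**Figure D2:**
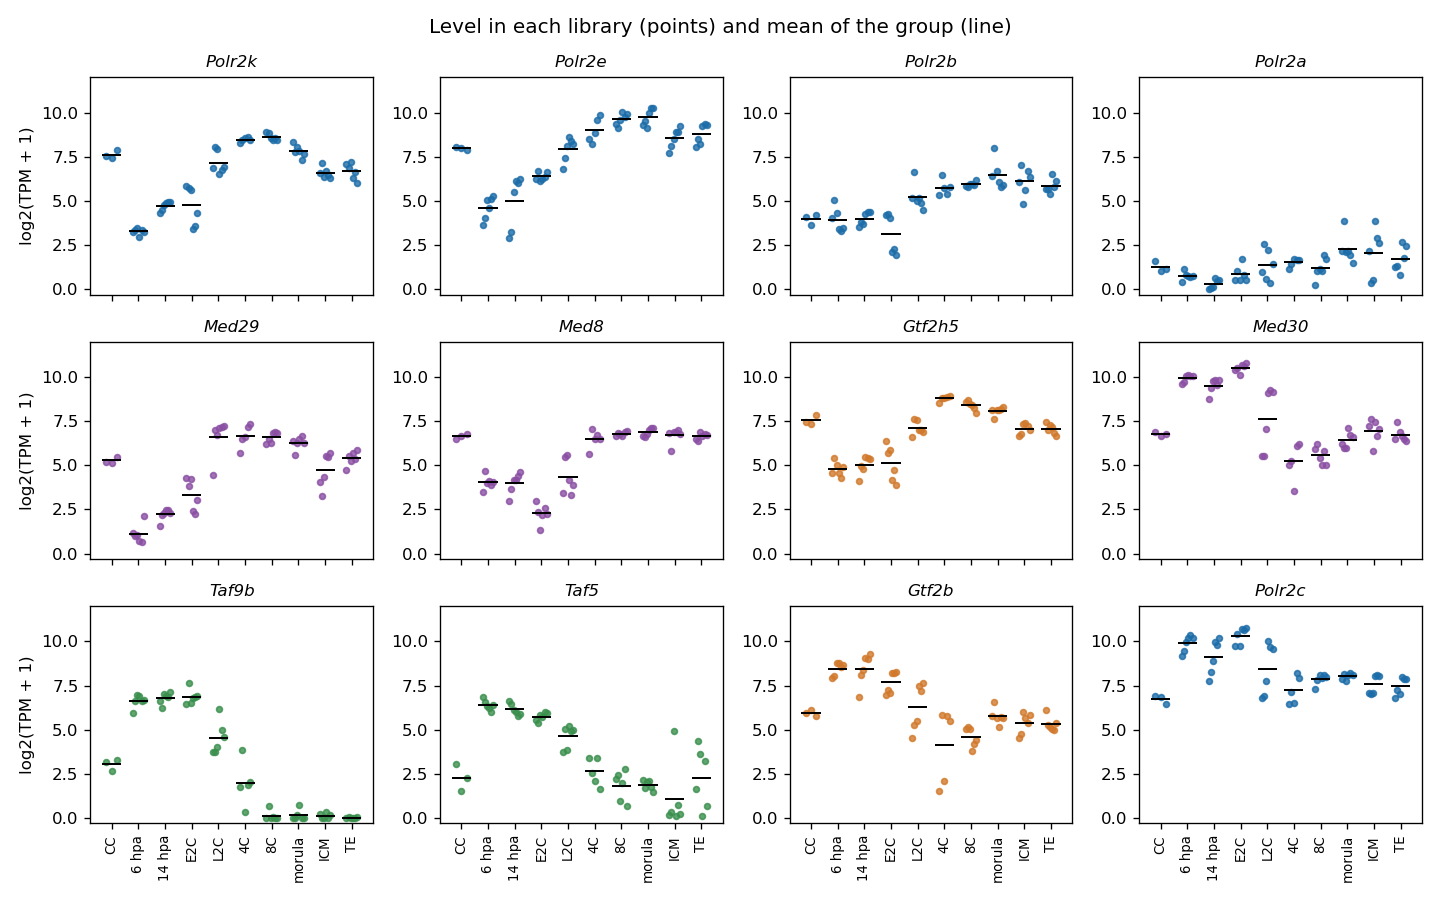
Level of 12 members in every library from CC to the SCNT blastocyst ICM and TE, each point 1 library, on a log2(TPM + 1) axis with a bar at each stage mean. Polr2k, Polr2e, Polr2b, Med29, Med8 and Gtf2h5 are higher at 4C than at 6 hpa, while Med30, Taf9b, Taf5, Gtf2b and Polr2c are lower. Polr2a is low at 6 hpa and 4C, with some morula and ICM libraries higher. The E2C or L2C libraries are split for Polr2b, Gtf2h5 and Med30.

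From L2C to 4C, 30 members were called, 13 higher and 17 lower, where 38.4% of all genes were called (11.8% higher and 26.6% lower). The median difference was 0.21 for members and -0.33 for all genes. Polymerase II genes split 5 higher and 1 lower, the general factors 3 and 3, TFIID and TAF genes 0 and 6, and Mediator 5 and 7. The rises without overlap included Polr2m, from 2.44–13.3 TPM (median 9.47) to 26.1–66.1 TPM (median 40.6; 2.30 ± 0.40), and Med8, from 9.14–47.3 TPM (median 15.4) to 48.8–132 TPM (median 88.7; 2.15 ± 0.32). The TFIIH genes Gtf2h2 and Gtf2h5 rose by 1.80 ± 0.31 and 1.67 ± 0.29, and Med31 and Med20 by 1.71 ± 0.32 and 1.57 ± 0.51.

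Both subunits of general TFIIA fell between L2C and 4C. Gtf2a1 went from 209–485 TPM (median 414) to 40.9–62.3 TPM (median 46.8), a difference of -2.83 ± 0.34 (adjusted p = 7.76e-10, limma), and Gtf2a2, the small subunit, from 155–556 TPM (median 384) to 110–132 TPM (median 122), a difference of -1.49 ± 0.29. Gtf2a1l had a median of 1.26 TPM at L2C and 0.134 TPM at 4C. Among the TAFs, Taf4a fell from 7.86–33.1 TPM (median 20.0) to 0.646–5.41 TPM (median 2.52; -2.58 ± 0.42) and Taf5 from 12.2–36.5 TPM (median 29.9) to 2.18–9.75 TPM (median 4.97; -1.99 ± 0.58). The kinase-module genes Med13 and Med12l fell by 1.61 (SE 0.43) and 1.54 (SE 0.30). With the trend of change on transcript length removed these became -0.77 (adjusted p = 0.114, limma) and -0.70 (adjusted p = 0.0682, limma), and neither was called. Without L2C replicate 1 the calls were 10 higher and 17 lower. Replicates 1 to 3 alone gave 8 higher and 8 lower, and removing the length trend gave 21 higher and 11 lower.

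From 4C to 8C, 9 members were called, 5 higher and 4 lower, where 19.8% of all genes were called (11.5% higher and 8.23% lower). Polr2m rose again, to 85.5–157 TPM (median 119; 1.37 ± 0.40), and Med12l from 0.0154–0.785 TPM (median 0.179) to 1.36–2.81 TPM (median 2.19; 1.32 ± 0.30), both without overlap. Taf6, Med20 and Med19 rose by 2.71 ± 0.81, 1.62 ± 0.51 and 1.05 ± 0.30. Gtf2a1 continued to fall, to 13.1–30.7 TPM (median 20.1; -1.26 ± 0.34, adjusted p = 0.00462, limma). Taf3, Taf9b and Polr2g fell by 1.04 (SE 0.38), 1.85 (SE 0.36) and 1.28 (SE 0.25), and Taf9b was at 0 in the median 8C library. Rescaling to annotated genes turned the split to 2 higher and 9 lower, and quantile normalization to 3 and 5.

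Setting 4C against 6 hpa spans the stages before and after genome activation. Of 73 members, 21 were higher at 4C and 21 lower, 42 in all, where 61.9% of all genes were called (31.3% higher and 30.6% lower). By complex, of the 13 polymerase II genes 8 were higher and 1 lower. Of the 13 general-factor genes 6 were higher and 4 lower, of the 18 TFIID and TAF genes 2 were higher and 9 lower, and of the 29 Mediator genes tested 5 were higher and 7 lower. Over 22 settings that changed the scaling, filter or fit, or used fewer libraries, polymerase II had 8 higher and 1 to 2 lower, not the same genes in each (Polr2f was not called with the trend of change on transcript length removed), and TFIID and TAF genes 1 to 4 higher and 7 to 9 lower. No test was made of the difference between complexes.

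**Figure D3:**
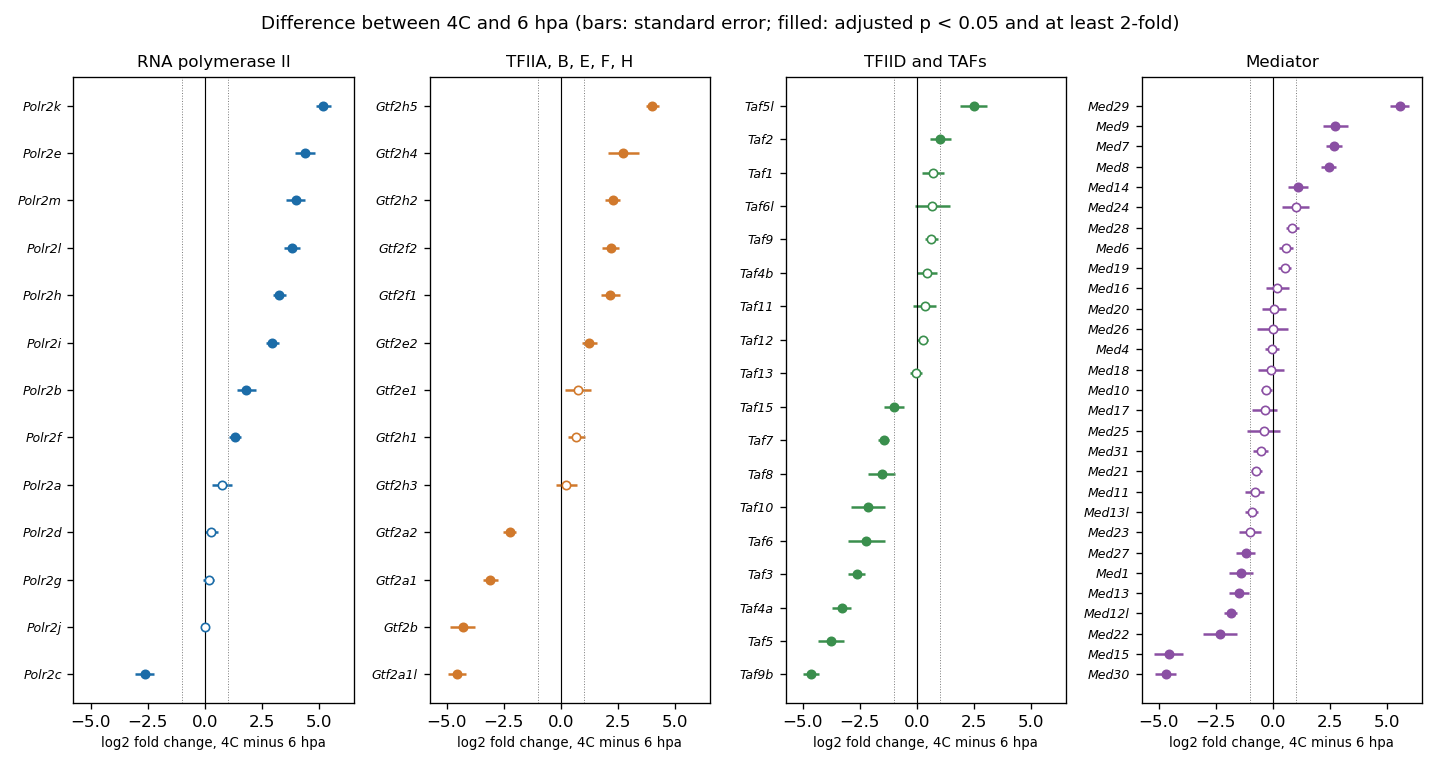
Log2 difference of each tested member at 4C against 6 hpa, on log2(TPM + 1), with its standard error, in 1 panel per complex, with filled points for called genes and dotted lines at 2-fold. Polymerase II genes lie mostly above 0, led by Polr2k at 5.18, and TFIID genes mostly below, led by Taf9b at -4.65.

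In polymerase II, all 5 shared subunits rose. Polr2k reached 312–388 TPM (median 351) at 4C from 6.76–10.1 TPM at 6 hpa, a difference of 5.18 ± 0.31 (adjusted p = 1.35e-20, limma). Polr2e reached 299–935 TPM (median 457; 4.38 ± 0.42) and Polr2l 144–366 TPM (median 175; 3.79 ± 0.35), against 11.6–38.3 and 9.99–23.8 TPM at 6 hpa. Polr2h and Polr2f rose by 3.25 ± 0.27 and 1.31 ± 0.26. Among the subunits particular to polymerase II the changes were mixed, with Polr2b up by 1.82 ± 0.41 (40.0–86.9 TPM at 4C, median 51.9), Polr2i up by 2.94, and Polr2c down by 2.64 (87.8–296 TPM at 4C, median 138). Polr2a was at 1.25–2.27 TPM (median 2.13) at 4C, above all 6 libraries at 6 hpa (0.356–1.17 TPM), but its difference of 0.76 ± 0.44 did not pass (adjusted p = 0.124, limma). Polr2m rose by 3.96 ± 0.40.

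The general factors moved in both directions. TFIIA and TFIIB, which stabilize the TATA-binding protein on DNA, fell: Gtf2a1 by 3.09 (SE 0.34), Gtf2a2 by 2.24 (SE 0.29), Gtf2a1l by 4.54 (SE 0.39) and Gtf2b by 4.31 (SE 0.54, adjusted p = 1.07e-09, limma). Gtf2b varied most within 4C, at 1.87, 56.1, 3.29, 53.8 and 43.8 TPM, all below the lowest 6 hpa library (245 TPM). TFIIF and TFIIH, which arrive with and after the polymerase, rose where they were called: Gtf2f1 by 2.16 ± 0.43, Gtf2f2 by 2.17 ± 0.36, Gtf2h2 by 2.25 ± 0.31, Gtf2h4 by 2.73 ± 0.67 and Gtf2h5 by 4.00 ± 0.29 (18.8–41.3 to 370–482 TPM). Of the TFIIE pair, Gtf2e2 rose by 1.24 ± 0.32 and Gtf2e1 did not pass (0.75 ± 0.55, adjusted p = 0.238, limma). Gtf2h1 and Gtf2h3 did not pass either.

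Of the TFIID and TAF genes, the 9 lower were Taf9b, Taf5, Taf4a, Taf3, Taf6, Taf10, Taf8, Taf7 and Taf15. Taf9b went from 61.8–122 TPM (median 99.5) to 0.266–13.5 TPM (median 2.61), a difference of -4.65 ± 0.36 (adjusted p = 1.86e-16, limma), and Taf5 from 64.2–116 TPM to 2.18–9.75 TPM (-3.77 ± 0.58). Taf3, which reads a histone mark of active promoters, went from 42.4–90.2 TPM (median 61.3) to 6.42–14.3 TPM (median 8.31). Taf7 fell by 1.46 (SE 0.24), to 34.1–91.0 TPM (median 74.9), and Taf10, a subunit of both TFIID and SAGA, by 2.15 (SE 0.73), from 25.5–158 TPM to 1.49–75.4 TPM with overlap. The 2 higher were Taf2 (1.01) and Taf5l (2.47 ± 0.61), the latter a subunit of the SAGA coactivator. The Taf2 call was lost with the replicate number as a block and with a pseudocount of 0.1, and it was kept with only 2 of 11 libraries left out in turn. Taf1 (4.35–9.14 TPM at 6 hpa, 9.37–13.8 TPM at 4C) did not pass (0.70 ± 0.48, adjusted p = 0.206, limma), although its ranges did not overlap.

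In Mediator the largest rise and the largest fall were in subunits of the interface between head and tail. Med29 rose by 5.54 ± 0.41 (adjusted p = 5.94e-17, limma), from 0.592–3.37 TPM to 49.9–163 TPM (median 95.4), and Med30 fell by 4.70 (SE 0.46, adjusted p = 5.23e-13, limma), from 778–1113 TPM (median 1053) to 10.7–73.3 TPM (median 37.0). Med15 in the tail fell by 4.56 (SE 0.63), to 2.43–4.28 TPM (median 3.10). Med14, the scaffold that holds the modules together, rose from 3.33–8.92 TPM (median 4.82) to 5.16–21.3 TPM (median 12.3; 1.08 ± 0.44, adjusted p = 0.0273, limma), and Med8, Med7 and Med9 rose by 2.43, 2.65 and 2.72. Med1, the subunit bound by nuclear receptors, fell from 19.9–59.7 TPM (median 48.4) to 7.27–22.8 TPM (median 14.8; -1.41 ± 0.51, adjusted p = 0.0144, limma), but with the length trend removed the difference was -0.70 and was not called (adjusted p = 0.192, limma). The head subunit Med17 was at 7.57–12.6 TPM (median 8.41) and 0.467–14.7 TPM (median 9.21), and its difference of -0.38 ± 0.53 did not pass (adjusted p = 0.553, limma). In the kinase module Med13 fell from 18.2–35.8 TPM to 5.49–13.1 TPM (-1.50 ± 0.43), which with the length trend removed became -0.68 and was not called (adjusted p = 0.127, limma). Med12, too low to be tested, was at 0.169–0.668 TPM at 6 hpa and 0–1.39 TPM at 4C.

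Motif matches in the promoters were spread over both directions of this comparison. Of the called members with a promoter, 13 of 17 higher and 11 of 18 lower held GGGCGG, and 2 of 17 and 4 of 18 held TATAAA.

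Where a member has a paralogue, the balance between them often moved, taken as the log2 ratio of (TPM + 1) of the first gene to the second in the same library. It was compared between 6 hpa (n = 6) and 4C (n = 5) by a two-sided exact permutation test over libraries, for 7 pairs, with p-values adjusted over the 7. The Taf5/Taf5l balance went from a mean of 5.67 to -0.57, a change of -6.25, and at 4C it lay on both sides of 0 (SD 1.23, n = 5). Taf5 had a mean of 85.6 TPM at 6 hpa, so a ratio this high means that Taf5l was low there. Over all 68 libraries Taf5l was below 1 TPM in 10, and its part of the balance rests on few transcripts. Taf4a/Taf4b went from 1.33 to -2.40, changing which gene was higher: Taf4a was at 26.7–33.7 TPM (median 30.7) at 6 hpa and 0.646–5.41 TPM at 4C, while Taf4b, known for its role in the germ line, was at 8.43–18.3 TPM (median 10.6) and 9.87–23.6 TPM (median 14.9). Taf6/Taf6l went from 2.97 to 0.10, Med12/Med12l from -1.79 to 0.04 and Taf9/Taf9b from 2.46 to 7.73. Each of these 5 had an exact p of 0.00216, the smallest possible with these group sizes (adjusted p = 0.00303). Gtf2a1/Gtf2a1l went from 3.74 to 5.20 (exact permutation p = 0.00866, adjusted p = 0.0101), and Med13/Med13l changed by -0.56 (exact permutation p = 0.156).

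**Figure D4:**
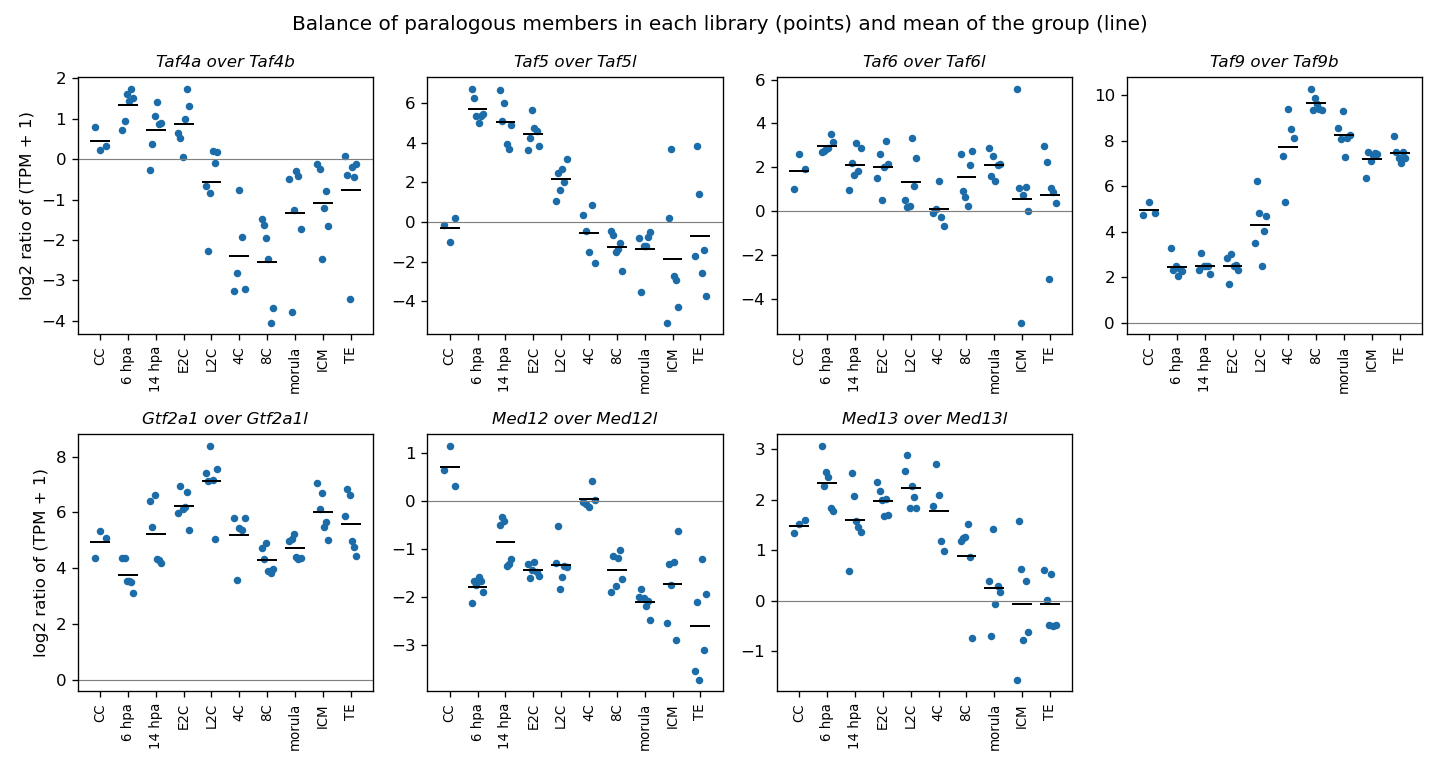
Log2 ratio of the first to the second gene of each of 7 paralogue pairs, on (TPM + 1), in every library from CC to the SCNT blastocyst ICM and TE, each point 1 library, with a bar at each group mean and a line at 0 for equal levels. The Taf4a/Taf4b mean goes from above 0 at 6 hpa to below 0 at 4C, the Taf5/Taf5l libraries at 4C lie on both sides of 0, and the Taf9/Taf9b mean goes from 2.46 to 7.73.

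Of Taf9 and Taf9b, the second alone was called. Taf9 was abundant at both stages, at 485–684 TPM (median 503) at 6 hpa and 537–1335 TPM (median 850) at 4C (0.61 ± 0.28, adjusted p = 0.0505, limma). Both Taf6 and Taf6l are low genes here, with Taf6 at 5.97–17.5 TPM at 6 hpa and 0.0783–5.86 TPM at 4C and Taf6l at 0.067–0.971 TPM and 0.0832–9.83 TPM, so their ratio rests on few transcripts. Med12l, at 2.70–4.71 TPM at 6 hpa and 0.0154–0.785 TPM at 4C, and Med12 met at levels below 1.4 TPM. For Med13 and Med13l both fell, Med13l from 3.38–6.04 TPM to 0.977–2.30 TPM (-0.94 ± 0.30, adjusted p = 0.00573, limma, under 2-fold).

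Genes that work with these complexes but lie outside the symbol rule were taken as lists. The TATA-binding protein gene Tbp was at 46.3–77.2 TPM (median 66.9) at 6 hpa and 20.9–122 TPM (median 50.4) at 4C and was called in no SCNT comparison. Its oocyte paralogue Tbpl2, which replaces it in the growing oocyte, was listed at 0 in all 3 CC libraries, was at 19.0–26.6 TPM (median 24.0) at 6 hpa and 27.4–39.6 TPM at E2C, fell by 2.97 to L2C (median 2.36 TPM), and was at 0–0.575 TPM at 4C, a difference of -4.23 from 6 hpa. The kinase Cdk8 of the Mediator kinase module was at 59.1–171 TPM (median 97.0) at L2C and 12.7–47.3 TPM (median 33.9) at 4C (-1.75), and its cyclin Ccnc rose from 15.8–41.4 TPM (median 24.2) at 6 hpa to 59.0–168 TPM (median 122) at 4C (2.12). Cdk7, the TFIIH kinase that phosphorylates the polymerase tail, rose from 8.07–11.2 TPM to 10.0–66.9 TPM (median 35.9; 1.49).

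At 4C against 6 hpa the subunits of polymerases I and III outside the shared ones were called higher in 10 of 15 and lower in none (all genes: 31.3% higher and 30.6% lower). The pausing and elongation factors were higher in 9 of 21 and lower in 1. A list of polymerase-tail phosphatases and other polymerase regulators had 4 of 11 higher and 1 lower, and TFIIH genes outside the rule had 3 of 4 higher. The same polymerase I and III list had 1 higher and 9 lower of 15 at 6 hpa against CC (25.8% and 35.6% of all genes), and 7 higher and none lower at L2C against E2C (23.7% and 11.2%). Of the list of Tbp, Tbpl1, Tbpl2, Taf7l, Btaf1, Dr1 and Drap1, 1 of the 6 tested was higher and 1 lower. Of the Mediator kinase-module genes outside the rule 2 of 3 were higher.

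The levels reached at 4C did not all last. Polr2k went from a median of 373 TPM at 8C to 91.3 TPM in ICM and 108 TPM in TE, and Polr2l from 350 to 38.9 and 60.7 TPM. Polr2m instead stayed high, at a median of 233 TPM in ICM and 260 TPM in TE. Polr2a had its highest SCNT levels in the morula (1.76–13.6 TPM, median 3.42) and ICM (0.266–13.4 TPM, median 4.36), both with wide ranges. Taf9b stayed at or near 0 from 8C on, with a highest value of 0.665 TPM. Of the SCNT ICM libraries, replicates 1 to 3 stood apart as described, and these later levels were not tested.

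The MO libraries ask whether the members moved when Max or Mcrs1 was blocked in fertilized embryos. Max was at 38.0 and 8.42 TPM in control ICM and at 6.82 and 0.443 TPM after Max MO, and at 34.5 and 28.5 TPM in control TE and 16.3 and 8.68 TPM after Max MO. Mcrs1 was at 253 and 310 TPM in control ICM and 86.8 and 73.4 TPM after Mcrs1 MO, and in TE at 219 and 294 TPM and 41.1 and 45.5 TPM. An MO can act on translation, so these levels are not a measure of knockdown. The control ICM libraries differed in their tissue markers. In replicate 1 TE markers summed to 16260 TPM, near the 18612–20787 TPM of control TE, and in replicate 2 to 622 TPM. They were at 2770 and 5903 TPM in Max MO ICM and 11622 and 8114 TPM in Mcrs1 MO ICM, while ICM markers were at 1383 and 1869 TPM in control ICM, 1037 and 1144 TPM after Max MO and 405 and 975 TPM after Mcrs1 MO. Primitive endoderm markers summed to 35.8 and 34.9 TPM in control ICM, 264 and 76.5 TPM after Max MO and 86.2 and 80.0 TPM after Mcrs1 MO. In TE, ICM markers were at 204 and 321 TPM in controls, 159 and 224 TPM after Max MO and 424 and 557 TPM after Mcrs1 MO. The TPM of annotated genes summed to 87.0% and 85.5% of that of the assembled loci in control ICM. This percentage was 89.6% and 90.3% in control TE, and 93.6% to 94.4% in the 8 libraries after an MO. The part of tissue mixture, of this percentage and of the low coverage of control TE replicate 1 in the MO comparisons was not tested. The numbers of calls in ICM are given with and without control replicate 1.

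In ICM after Max MO, 9 of 71 members were higher and 12 lower, where 23.7% of all genes were called (8.65% higher and 15.1% lower). After Mcrs1 MO 6 were higher and 9 lower, where 10.1% were called (4.88% higher and 5.21% lower). In TE the numbers were 3 and 2 after Max MO (2.5% of all genes, 1.04% higher and 1.45% lower) and 5 and 6 after Mcrs1 MO (5.08%, 1.77% higher and 3.31% lower). Both MO groups of a tissue were set against the same 2 control libraries, so their results are not independent of each other. Without control ICM replicate 1 the calls were 24 for Max MO (7 higher, 17 lower) and 18 for Mcrs1 MO (9 and 9). The calls lost without it were Polr2g, Polr2i, Gtf2e1, Med9, Med10 and Med21 for Max MO and Med12l and Med13l for Mcrs1 MO. No call in any of the 4 comparisons survived every alternative and every left-out library. Leaving out 1 library at a time gave 10 to 27 calls in ICM after Max MO, 1 to 18 in ICM after Mcrs1 MO, 0 in TE after Max MO and 0 to 2 in TE after Mcrs1 MO, the lone library of a group being taken to vary like the other groups. Fitting only the 2 groups compared left 0 calls in ICM for either MO. The difference between the tissues in their response was tested as an interaction, which called 0 members and 0% of all genes for each MO in limma, with 8 members for Max MO and 3 for Mcrs1 MO at an unadjusted p below 0.05, where 13.1% and 8.66% of all genes were.

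Med25, a tail-associated Mediator subunit that activators bind, was lower in every MO group. It was at 165 and 190 TPM in control ICM, 29.1 and 37.5 TPM after Max MO and 15.6 and 32.4 TPM after Mcrs1 MO, differences of -2.39 ± 0.41 (adjusted p = 0.00263, limma) and -2.92 ± 0.41 (adjusted p = 0.00441, limma). In TE it was at 110 and 122 TPM in controls, 17.4 and 19.7 TPM after Max MO and 25.9 and 11.9 TPM after Mcrs1 MO, differences of -2.58 and -2.65. In each comparison both MO libraries lay below both controls. With 2 libraries per group, separation in either direction was common among the 71 members. It held for 52 (Max MO) and 46 (Mcrs1 MO) in ICM and for 46 and 52 in TE, and its share over all genes was not counted. Polr2f, a shared polymerase subunit, was higher in every MO group: from 44.7 and 57.2 TPM in control ICM to 223 and 242 TPM after Max MO (2.18 ± 0.25) and 166 and 143 TPM after Mcrs1 MO (1.59 ± 0.25), and from 42.3 and 68.0 TPM in control TE to 145 and 142 TPM (1.40) and 115 and 109 TPM (1.05). Med26, which links Mediator to elongation factors, differed by -1.72, -1.38, -1.57 and -1.55 in the same order, ICM before TE and Max MO before Mcrs1 MO.

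Of the members changed in ICM, those lower after Max MO included Polr2b, from 226 and 218 TPM to 60.6 and 54.8 TPM (-1.93 ± 0.29, adjusted p = 0.00155, limma), Taf2 (-1.95 ± 0.39), and Mediator tail and kinase-module genes. Med15 was at 39.0 and 66.3 TPM in control ICM and 11.2 and 8.66 TPM after Max MO (-2.26 ± 0.41), Med12l differed by -2.12 and Med13l by -2.20. With the trend of change on transcript length removed, Med12l differed by -0.83 (adjusted p = 0.278, limma) and Med13l by -0.996 (adjusted p = 0.252, limma), and neither was called. Med12 was at 9.75 and 14.1 TPM in control ICM, 3.75 and 3.52 TPM after Max MO and 1.97 and 1.51 TPM after Mcrs1 MO, and was called for Mcrs1 MO (-2.22 ± 0.56, adjusted p = 0.0306, limma). Med23 and Gtf2h4 were also lower after Mcrs1 MO (-2.28 ± 0.56 and -1.64 ± 0.43).

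The members that rose in ICM included a polymerase II assembly subunit, TFIIB and a Mediator head subunit. Polr2j went from 61.7 and 51.9 TPM in controls to 189 and 169 TPM after Max MO (1.65 ± 0.24) and 140 and 132 TPM after Mcrs1 MO (1.25 ± 0.24). Gtf2b went from 43.0 and 28.0 TPM to 92.2 and 103 TPM (1.46 ± 0.28) and 79.0 and 104 TPM (1.36 ± 0.28), and Med8 from 64.7 and 55.0 TPM to 179 and 118 TPM (1.27 ± 0.25) and 136 and 120 TPM (1.09 ± 0.25). Med9 and Polr2i were called higher after Max MO (1.58 and 1.24), calls that were lost without control ICM replicate 1 and without either Max MO library. Med10 and Taf9 rose after Mcrs1 MO (1.17 and 1.02). In TE, Med27 rose after each MO, from 39.5 and 29.4 TPM to 87.0 and 113 TPM (1.51 ± 0.30) and 93.7 and 80.2 TPM (1.32 ± 0.30), Med6 rose after Max MO (1.04), and Polr2h, Gtf2b and Gtf2a2 after Mcrs1 MO (1.22, 1.17 and 1.02). Polr2a was lower in TE after Mcrs1 MO, from 9.93 and 18.0 TPM to 2.48 and 1.77 TPM (-2.22 ± 0.58, adjusted p = 0.0491, limma). Its differences in the other 3 comparisons, -1.47 and -1.09 in ICM after Max and Mcrs1 MO and -1.93 in TE after Max MO, did not pass (adjusted p = 0.0835, 0.241 and 0.0968, limma). Med12l, Med19 and Gtf2a1 were also lower in TE after Mcrs1 MO (-1.93, -1.63 and -1.27).

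The change after an MO moved with transcript length. Across the 71 members Spearman's rho between the log2 difference and the length of the longest annotated transcript was -0.542 for Max MO in ICM, -0.434 for Mcrs1 MO in ICM, -0.617 for Max MO in TE and -0.554 for Mcrs1 MO in TE. Across all 11150 genes with a length it was -0.452, -0.314, -0.366 and -0.396, with long transcripts lower after the MO in each case. Genes are not independent replicates and the comparisons share controls, so these are descriptions. With the trend on length removed, the calls in ICM were 14 (7 higher, 7 lower) after Max MO and 8 (5 and 3) after Mcrs1 MO, and in TE 2 (1 and 1) and 7 (5 and 2). Among the calls described above that were then lost were Polr2j, Med8 and Med12l for each MO in ICM, Polr2i, Med9 and Taf2 for Max MO in ICM, Taf9, Med12 and Med23 for Mcrs1 MO in ICM, Med26 and Med27 for each MO in TE, and Polr2a, Gtf2a1 and Gtf2a2 for Mcrs1 MO in TE. The split also moved with scaling, to 7 higher and 15 lower in ICM after Max MO and 2 higher and 7 lower in TE after Mcrs1 MO on rescaling to annotated genes. At the step from L2C to 4C the same relation was -0.452 for the members and -0.192 for all genes.

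**Figure D5:**
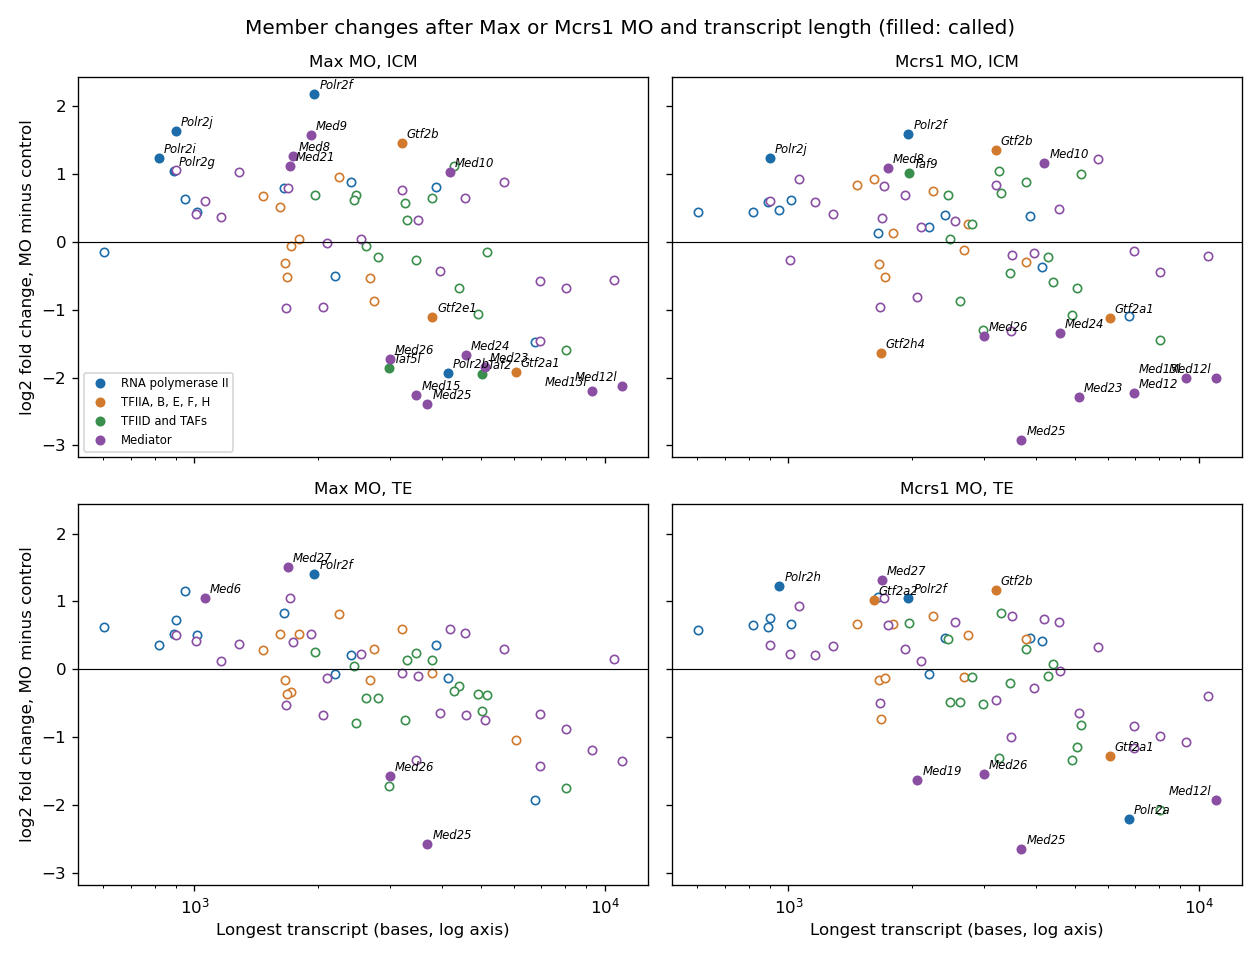
Log2 difference of each tested member after Max or Mcrs1 MO in ICM and TE, on log2(TPM + 1), against the length of its longest annotated transcript in bases on a log axis, with filled points for called members and colours for the complexes. Most long members lie below 0 and short ones such as Polr2j above it in all 4 panels, and rho lies between -0.617 and -0.434.

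The E-box CACGTG, which Max binds with its partners, was in the promoters of 9 members, and of the members called in ICM after Max MO that had a promoter it was in none of the 7 higher and 1 of the 9 lower. The lower one was Gtf2a1, whose promoter is shown above, at 80.3 and 77.7 TPM in control ICM, 24.4 and 16.7 TPM after Max MO, 36.2 and 35.3 TPM after Mcrs1 MO, and in TE 98.4 and 100 TPM, 48.5 and 46.9 TPM, and 44.9 and 36.4 TPM. Taf1 was at 18.3 and 22.5 TPM in control TE, 6.77 and 4.16 TPM after Max MO and 4.17 and 3.97 TPM after Mcrs1 MO, and was called in none of the 4 comparisons. Taf7 was at 167 and 94.0 TPM in control ICM, 174 and 142 TPM after Max MO and 213 and 204 TPM after Mcrs1 MO. Med1 was at 28.2 and 53.8, 25.9 and 22.4, and 32.2 and 25.1 TPM, and Med17 at 51.6 and 35.1, 30.4 and 32.6, and 43.6 and 32.9 TPM in the same 3 groups. For Med17 the values overlapped those of the controls after Mcrs1 MO, while both Max MO libraries lay below both controls. Such separation, in either direction, held for 52 of the 71 members in ICM after Max MO.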

How the data were processed

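The samples were RNA-seq libraries made by Smart-seq2, which primes on poly(A) and keeps no strand. According to the methods, reads were trimmed with Cutadapt 1.16 and aligned to mm10 with HISAT2, and StringTie then gave one abundance table per library. In these tables the authors deposited TPM for each gene, held here as a score because annotated genes and assembled loci overlap and the column sums to more than its usual total. The authors also deposited FPKM, which was not used, and a mean coverage signal per gene, used only to estimate depth. TPM was summed per gene symbol. No read counts were in the tables, so no count test or counting interval was possible.

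Groups were taken from the sample labels. For 1 library at 4C the replicate number differed between label and table, and the label was used. The members, lists, tests and alternatives were chosen with earlier results of these data known. Limma 3.58.1 (R 4.3.3) was fitted to log2(TPM + 1) for genes with a mean of 1 TPM or more, with a trended prior, in 3 fits: the 9 SCNT groups (53 libraries, 11867 genes), the same with CC (56 libraries, 12084 genes) and the 6 MO groups (12 libraries, 11219 genes). The scripts were tested on simulated data. Same-numbered libraries of 14 hpa and 6 hpa deviated together (r between 0.142 and 0.39), and no other comparison had every such r above 0.1. Replicates 2, 3, 4 and 5 correlated more closely with a library of another number, so pairing by number was not shown. Alternatives changed the pseudocount (0.1), the filter (none, or a mean of 5 TPM), the scaling, the row chosen per gene, the libraries in the fit, the replicate block and, added after the data were seen, the trend on transcript length (lowess, span 0.3). Named in full were fixed core genes, 7 paralogue pairs and up to 6 rises and 6 falls per comparison, those without overlap first. Other members named beside them were chosen after their values were seen. Promoters are from RefSeq, GRCm38.p6. Tables and plots used Python 3.11.15, pandas 2.3.3, numpy 2.4.6 and matplotlib 3.10.9.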

Additional observations from a re-analysis of the deposited data

Results flagged for a closer look

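The summed TPM of the TFIID and TAF genes held 1 library apart from its group at 2 stages, by the gap to its nearest neighbour relative to the range of the group. At 6 hpa replicate 3 was at 1912 TPM, with the other 5 libraries between 1568 and 1675 TPM. At L2C replicate 1 was at 479 TPM, with the others between 1297 and 1741 TPM. In this library annotated genes also had their smallest TPM sum, 30.4% of that of the assembled loci. The rule was applied to 45 groups of values, and chance flags about 1 in 20.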

How the results depend on the processing

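Between 6 hpa and CC, L2C and E2C, 8C and 4C, and 4C and 6 hpa, the number of members called stayed within 1.5 times under each alternative that changed the fit. Elsewhere some counts did not. For E2C against 14 hpa the count went from 5 to 8 with the length trend removed, 3 with only the compared groups, 8 with replicates 1 to 3 and 11 with replicates 4 to 6. It went from 10 to 17 for 14 against 6 hpa with replicates 4 to 6, and from 30 to 16 for 4C against L2C with replicates 1 to 3. After MO, removing the length trend gave 8 (from 15) for Mcrs1 in ICM, 2 (from 5) for Max in TE and 7 (from 11) for Mcrs1 in TE. Quantile normalization gave 3 and 7 in TE, no filter 5 for Mcrs1 in TE, and only the compared groups 0 and 0 in ICM and 8 for Max in TE. The cause was not tested. Rescaling to annotated genes moved the median of all genes from 0.26 to 0.52 at L2C against E2C.

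Leaving out 1 library gave 7 to 9 calls for 14 against 6 hpa, 2 to 6 for E2C, 18 to 24 for L2C, 26 to 32 for 4C against L2C, 6 to 11 for 8C, 39 to 41 for 4C against 6 hpa and 39 to 44 for 6 hpa against CC. After MO it gave 10 to 27 (Max, ICM), 1 to 18 (Mcrs1, ICM), 0 (Max, TE), 0 to 2 (Mcrs1, TE) and 0 to 1 for each interaction. The paralogue balances ranged from -4.14 to -3.51 (Taf4a/Taf4b), -6.60 to -5.87 (Taf5/Taf5l), -3.19 to -2.69 (Taf6/Taf6l), 4.85 to 5.87 (Taf9/Taf9b), 1.3 to 1.86 (Gtf2a1/Gtf2a1l), 1.73 to 1.87 (Med12/Med12l) and -0.80 to -0.36 (Med13/Med13l, past the threshold only without 4C replicate 2).

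With the replicate number as a block the calls were 13 for 14 against 6 hpa, where all 10 calls were kept, 7 for E2C, 23 for L2C, 32 for 4C against L2C, 9 for 8C, 41 for 4C against 6 hpa and 42 for 6 hpa against CC, and 20, 16, 4 and 8 after MO (ICM Max, ICM Mcrs1, TE Max, TE Mcrs1). Only in 14 against 6 hpa was the correlation of same-numbered libraries above 0.1 for every number. Even there replicates 2, 3, 4 and 5 correlated more closely with a library of another number, so pairing by number was not shown in any comparison. Paired by number, the balances were -3.69, -6.29, -2.84, 5.22, 1.33 and 1.81 for the first 6 pairs, where 5 pairs of libraries cannot give an exact sign-flip p below 0.0625.

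Of 2018 values of 109 named gene results under the alternatives, 1744 kept direction and side of the threshold, 274 lost the threshold and 0 reversed. Coverage was estimated but read counts were not given, so what depth allows for low genes such as Polr2a and Med12 cannot be stated. TPM is relative, and 2 libraries per MO group limit those comparisons most.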
